A study of Homo sapiens with 4 samples.

Results

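The genes described here are 10 enzymes of antioxidant and carbonyl metabolism: NQO1, GCLC, GCLM, TXNRD1, SRXN1, HMOX1, AKR1B10, AKR1C1, AKR1C2 and AKR1C3. They form a set of known NRF2 targets and aldo-keto reductases given by name, and matching by symbol found all 10 among the 16370 genes listed in either pair of cell lines. Their expression was read from RNA sequencing of Hep3B and Huh7, established human hepatoma lines obtained from ATCC and grouped as hepatocellular carcinoma cells (HCC), and of Hep3B-C and Huh7-C, cancer stem-like cultures grown from them and grouped as hepatic cancer stem cells (HCSC). Each of the 4 lines was represented by 1 library made from total RNA, with no drug or genetic treatment given in the labels, so no difference between an HCSC line and its parental line had a replicate check. Total gene counts lay between 2896418 in Hep3B and 4641927 in Hep3B-C, and 3 counts, taken as the smallest level a library could show, stood between 0.646 and 1.04 CPM (counts scaled to a common library total). All 7 hepatocyte markers examined, albumin among them, had at least 10 counts in each of the 4 libraries, and none of 4 leukocyte markers did. The summed level of the hepatocyte markers was lower in Huh7-C (19001 CPM) than in the other libraries (43048 to 52101 CPM). SERPINA1 alone made up 40517 of 44965 CPM in Huh7 and 17284 of 19001 CPM in Huh7-C. APOA1, TF and FGB were also lower in Huh7-C than in Huh7. AFP had few counts in this pair, 26 in Huh7 and 12 in Huh7-C, beside 16175 in Hep3B and 4201 in Hep3B-C. TTR had 13 counts in both Huh7 and Huh7-C. Albumin was higher in Huh7-C (267 CPM) than in Huh7 (106 CPM), and stood at 19541 CPM in Hep3B and 18469 CPM in Hep3B-C. Of the 3 endothelial and 4 fibroblast markers, PECAM1 had 17 counts in Huh7 and 93 in Huh7-C and PDGFRB had 186 and 2, while the summed levels ranged from 2.76 to 21.5 CPM and from 2.08 to 45.0 CPM over the libraries, and their part in the results was not tested.

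NRF2, encoded by NFE2L2, is a transcription factor that the adaptor KEAP1 hands to a ubiquitin ligase for degradation. Electrophiles and oxidants modify KEAP1, and NRF2 then accumulates, pairs with small MAF proteins and binds antioxidant response elements, from which the repressor BACH1 can be displaced. Its well-known targets supply glutathione, reduce thioredoxin and quinones and degrade haem, and in human cells they include several aldo-keto reductases (AKR), which reduce aldehydes, ketones and steroids with NADPH. AKR1B10 is known for its high expression in many liver tumours.

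The 2 parental lines started from different levels of these genes. On the RPKM scale, counts divided by gene length and library total, which allows genes of different length to be compared, the order in Hep3B was led by TXNRD1 at 40.9 and HMOX1 at 20.3, with AKR1B10 at 0.866, AKR1C3 at 0.282 and AKR1C1 and AKR1C2 at 0. In Huh7 the order was led by AKR1C3 at 124 RPKM, AKR1C1 at 85.2, HMOX1 at 84.5 and AKR1C2 at 67.1, and only AKR1B10, at 0.138 RPKM, was near the lower limit. The AKR1C genes were thus abundant in 1 parental line and at or below the smallest level that could be shown in the other. In bulk RNA, fewer cells that express a gene and less RNA per cell cannot be told apart.

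**Figure D1:**
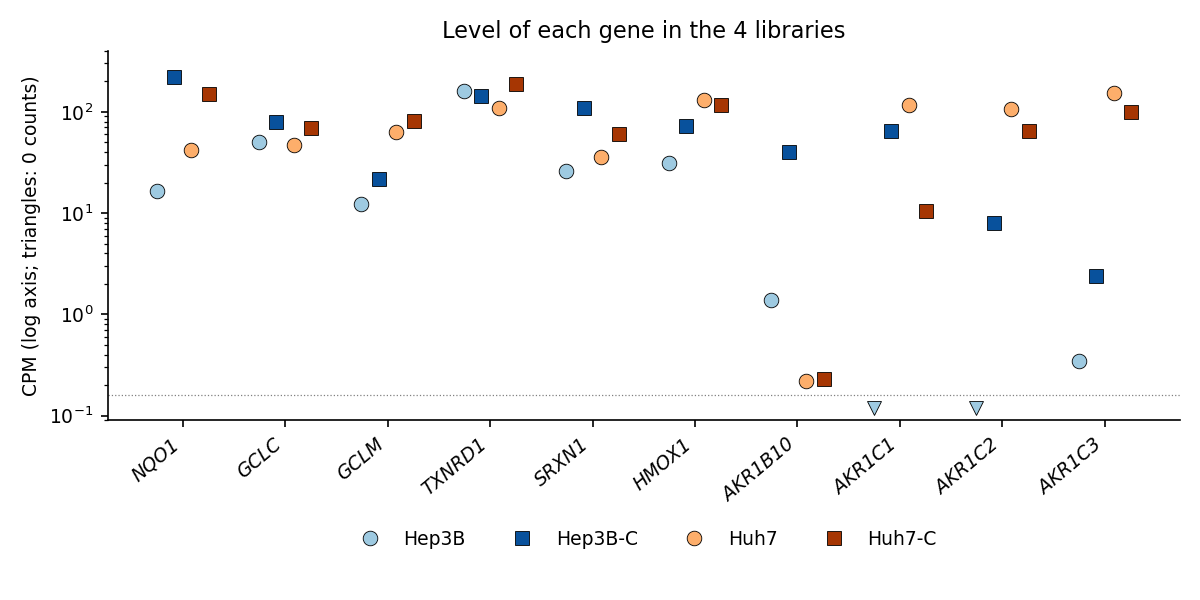
Level of the 10 genes in each of the 4 libraries, as CPM on a log axis, with 1 point per library (circles for HCC, squares for HCSC, triangles for 0 counts). In Hep3B the 3 AKR1C genes lie at 0 to 0.345 CPM, while in Huh7 they lie between 107 and 152 CPM. NQO1 stands higher in each HCSC library than in its parental library.

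NQO1 encodes a quinone reductase that transfers a pair of electrons to quinones and is widely used as a readout of NRF2 activity. It stood at 16.6 CPM in Hep3B against 223 CPM in Hep3B-C, and at 42.1 CPM in Huh7 against 149.5 CPM in Huh7-C. Both HCSC libraries were above both parental libraries. NQO1 was up-regulated 13.4-fold in Hep3B-C (95% exact interval of the ratio 10.1 to 18.3; log2 fold-change 3.73 ± 0.21, counting SE; FDR 4.2e-152 by the Audic-Claverie test) and 3.55-fold in Huh7-C (3.02 to 4.20; log2 fold-change 1.83 ± 0.12; FDR 1.3e-61). This test sets the counts of 2 libraries against their totals, so its FDR and the intervals given here cover sampling noise alone and not variation between cultures. The change was larger in the Hep3B pair by 1.91 on the log2 scale (95% counting interval 1.43 to 2.38), and by 1.71 to 2.65 under 4 other normalizations.

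NQO1 lies on the minus strand of chr16:69706996-69726951 (GRCh38, GENCODE 29). The RefSeq promoter, chr16:69726511-69726810 on the minus strand of GRCh38.p14, is shown because NQO1 was the gene of the set called in the same direction in both pairs. It runs 5′ to 3′ from 250 bases before to 50 bases after the transcription start, and the capitals mark the match to an antioxidant response element core written as TGAGNNNGC, read on the opposite strand as TGAGGCTGC, with its leftmost base at -119 from the start.
NQO1 promoter: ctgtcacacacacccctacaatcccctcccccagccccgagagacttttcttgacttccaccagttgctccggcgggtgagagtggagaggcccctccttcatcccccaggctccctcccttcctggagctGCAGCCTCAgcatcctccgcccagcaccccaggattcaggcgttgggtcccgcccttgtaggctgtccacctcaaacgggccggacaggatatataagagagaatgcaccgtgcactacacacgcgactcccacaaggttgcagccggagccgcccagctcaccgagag
The core was searched on both strands in the forms TGACNNNGC, found in 13.3% of 35116 RefSeq promoters of this length, and TGAGNNNGC, found in 18.3%, and either form was present in 29.1%. Such a match is a description of the letters and not evidence of binding. Of the 8 genes with a promoter in the table, 5 (NQO1, GCLM, TXNRD1, AKR1C1 and AKR1C2) held at least 1 form, and none was found in the promoter windows of GCLC, SRXN1 and AKR1C3. This counts genes, of which TXNRD1 and AKR1C3 had 2 promoters each, whereas the shares above count promoters. AKR1C1 and AKR1C2 share a run of 245 identical bases that holds their match, so they are not independent.

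GCLC and GCLM encode the catalytic and the modifier subunit of glutamate-cysteine ligase, the rate-limiting enzyme of glutathione synthesis. GCLC stood at 50.4 CPM in Hep3B and 79.1 CPM in Hep3B-C, and at 46.9 CPM in Huh7 and 69.5 CPM in Huh7-C. For GCLM the levels were 12.4 and 21.5 CPM in the Hep3B pair (HCC first) and 63.5 and 81.9 CPM in the Huh7 pair. Each subunit was higher in the HCSC library of both pairs, but none of these differences reached the log2 fold-change of 1 that was required, together with an FDR of at most 0.01, for a call. The ratios for GCLC were 1.57 in the Hep3B pair (1.29 to 1.91; FDR 6.8e-06, Audic-Claverie test) and 1.48 in the Huh7 pair (1.24 to 1.77; FDR 7.4e-05), and the log2 fold-changes of the pairs differed by 0.08 (-0.29 to 0.46). This closeness depended on the scaling, because the difference was 0.72 with TMM library sizes and 1.14 with the trends on GC content and length removed, and under both GCLC and GCLM were called up in the Hep3B pair. The ratios for GCLM were 1.73 (1.17 to 2.61; FDR 0.0081) and 1.29 (1.10 to 1.51; FDR 0.0056). Expressed as RPKM, GCLC stood above GCLM in Hep3B (13.6 against 4.04) and in Hep3B-C (21.3 against 7.01), and below it in Huh7 (12.6 against 20.6) and in Huh7-C (18.7 against 26.6). The larger difference was thus between the parental lines: GCLM was 5.11-fold higher in Huh7 than in Hep3B (3.60 to 7.44), while the interval for GCLC included 1 (ratio 0.931, 0.751 to 1.16).

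GCLC lies on chr6:53497341-53616970 and GCLM on chr1:93885205-93909456, both on the minus strand. The GCLM promoter, chr1:93909381-93909680 on the minus strand, is shown for its match to each form close to the start, with capitals for TGACTAAGC at -34 and TGAGGGAGC at -8, both on the opposite strand.
GCLM promoter: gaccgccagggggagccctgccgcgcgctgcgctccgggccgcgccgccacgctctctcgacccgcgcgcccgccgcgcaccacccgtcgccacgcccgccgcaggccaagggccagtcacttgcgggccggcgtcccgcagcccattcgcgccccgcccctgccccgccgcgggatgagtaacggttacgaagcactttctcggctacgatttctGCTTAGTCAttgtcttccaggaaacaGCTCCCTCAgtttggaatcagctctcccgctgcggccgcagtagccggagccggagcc

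TXNRD1 and SRXN1 serve thiol redox control. Thioredoxin reductase, encoded by TXNRD1, keeps thioredoxin reduced at the expense of NADPH, and sulfiredoxin, encoded by SRXN1, repairs overoxidised peroxiredoxins. TXNRD1 stood at 159.9 CPM in Hep3B and 145 CPM in Hep3B-C, and at 109.5 CPM in Huh7 and 189 CPM in Huh7-C. It did not pass the test in the Hep3B pair (ratio 0.904, 0.802 to 1.02; FDR 0.14) and was 1.72-fold higher in Huh7-C than in Huh7 (1.54 to 1.93; FDR 7.0e-21, Audic-Claverie test; log2 fold-change 0.78), which did not reach the fold threshold. The log2 fold-change was lower in the Hep3B pair by an amount whose interval did not include 0 (-0.93, -1.16 to -0.70). The sign of the Hep3B value depended on the scaling, since it was -0.15 with total gene counts and 0.45 with TMM library sizes. The difference between the pairs depended on it too, at -0.29 with TMM sizes and -0.08 once the trends on GC content and length had been removed.

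SRXN1 was present at 25.9 CPM in Hep3B against 108 CPM in Hep3B-C, and at 35.7 CPM in Huh7 against 60.2 CPM in Huh7-C. Both HCSC libraries were above both parental libraries, as for NQO1. SRXN1 was up-regulated 4.16-fold in Hep3B-C (3.26 to 5.38; log2 fold-change 2.05 ± 0.18; FDR 2.3e-40, Audic-Claverie test). In the Huh7 pair the ratio was 1.69 (1.38 to 2.07; FDR 1.1e-06; log2 fold-change 0.75), under the fold threshold. With the trends on GC content and length removed, the log2 fold-changes of SRXN1 were 1.30 in the Hep3B pair and 0.80 in the Huh7 pair. The difference between the pairs was then 0.50 in place of 1.30.

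TXNRD1 lies on the plus strand of chr12:104215779-104350305 and SRXN1 on the minus strand of chr20:646615-653370. Of the 2 RefSeq promoters of TXNRD1, the downstream one, chr12:104286782-104287081 on the plus strand, is shown for its pair of matches, TGAGCAGGC at -198 and, on the opposite strand, TGACAAAGC at -102. The upstream one held TGACTTCGC at -99 and, on the opposite strand, TGACGGAGC at -8. The counts were given per gene, so use of either start could not be measured.
TXNRD1 promoter: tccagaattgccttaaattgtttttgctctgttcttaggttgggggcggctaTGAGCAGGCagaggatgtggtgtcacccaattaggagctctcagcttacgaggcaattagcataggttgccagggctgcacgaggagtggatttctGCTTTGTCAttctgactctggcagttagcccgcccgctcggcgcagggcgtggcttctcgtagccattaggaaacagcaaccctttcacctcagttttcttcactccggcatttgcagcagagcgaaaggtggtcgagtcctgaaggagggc

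HMOX1, on the plus strand of chr22:35380361-35394214, encodes the inducible haem oxygenase, which cleaves haem to biliverdin, carbon monoxide and iron. HMOX1 levels were 31.4 and 71.7 CPM in Hep3B and Hep3B-C, and 131 and 117 CPM in Huh7 and Huh7-C. The level was higher in both libraries of the Huh7 pair than in either library of the Hep3B pair. HMOX1 was up-regulated 2.28-fold in Hep3B-C (1.81 to 2.91; log2 fold-change 1.19 ± 0.17; FDR 4.3e-13, Audic-Claverie test), and the ratio in the Huh7 pair was 0.894 (0.792 to 1.01; FDR 0.15). HMOX1 has the highest GC content of the 10 genes (58.1%), and its log2 fold-change in the Hep3B pair was 0.42, with no call, once the trend across genes on gene length had been removed, and -0.42, with no call, once those on GC content and length had been.

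AKR1B10, on the plus strand of chr7:134527592-134541408, reduces retinal and other carbonyls. It had 4 counts (1.38 CPM) in Hep3B and 184 counts (39.6 CPM) in Hep3B-C, and 1 count in each of Huh7 and Huh7-C. It was up-regulated 28.7-fold in Hep3B-C (11.0 to 106; FDR 3.2e-32, Audic-Claverie test). In the Huh7 pair both libraries were under the limit of 3 counts and no fold was given. Hep3B-C was therefore the single library with AKR1B10 above 10 counts, and its ratio to Huh7-C, which rests on 1 count there, was 172 (30.5 to 6822).

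AKR1C1, AKR1C2 and AKR1C3 lie side by side on chromosome 10, at chr10:4963253-4983283 (plus strand), chr10:4987400-5018031 (minus strand) and chr10:5035354-5107686 (plus strand). They are hydroxysteroid dehydrogenases: AKR1C1 and AKR1C2 are known for inactivating progesterone and dihydrotestosterone, and AKR1C3 for forming testosterone and reducing prostaglandins. Their coding sequences are so alike that the assignment of short reads among them is uncertain. Of 972 coding bases, AKR1C1 and AKR1C2 differed at 19 (98.0% identity), with an identical run of 189 bases, whereas AKR1C3 differed from AKR1C1 at 83 (91.5%) and from AKR1C2 at 87 (91.0%). Of all 35-base windows of AKR1C1, 63.8% occurred unchanged in AKR1C2 and 20.3% in AKR1C3. Read length and the handling of reads with several matches are not given in the sources used here. The stretch from coding base 43 to 162 is shown because it holds both shared and distinguishing bases: capitals mark, in AKR1C1, the bases that differ from AKR1C2, and in AKR1C2 and AKR1C3 those that differ from AKR1C1, 10 and 13 in number.
AKR1C1 coding bases: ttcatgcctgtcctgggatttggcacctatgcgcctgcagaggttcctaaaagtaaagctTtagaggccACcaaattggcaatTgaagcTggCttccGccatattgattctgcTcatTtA
AKR1C2 coding bases: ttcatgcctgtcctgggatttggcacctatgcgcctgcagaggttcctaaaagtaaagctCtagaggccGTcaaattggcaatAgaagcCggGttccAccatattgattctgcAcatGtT
AKR1C3 coding bases: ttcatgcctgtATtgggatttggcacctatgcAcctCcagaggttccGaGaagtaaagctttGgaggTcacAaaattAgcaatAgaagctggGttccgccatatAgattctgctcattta

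AKR1C1 had 0 counts in Hep3B against 301 (64.8 CPM) in Hep3B-C, and 533 (117 CPM) in Huh7 against 45 (10.4 CPM) in Huh7-C. The pairs moved in opposite directions. It was at least 62.6-fold higher in Hep3B-C than the limit of 3 counts in Hep3B (FDR 1.3e-62, Audic-Claverie test), and 11.3-fold lower in Huh7-C than in Huh7 (log2 fold-change -3.49 ± 0.22; FDR 3.3e-100). AKR1C1 was thereby the single member called down in either pair. Of 13917 genes in both pairs, 74 (0.532%) were called up in the Hep3B pair and down in the Huh7 pair.

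AKR1C2 had 0 counts in Hep3B against 37 (7.97 CPM) in Hep3B-C, and 484 (107 CPM) in Huh7 against 283 (65.3 CPM) in Huh7-C. Like AKR1C1, it was higher in Hep3B-C and lower in Huh7-C than in the parental line. It was up-regulated at least 7.70-fold in Hep3B-C (FDR 9.0e-08, Audic-Claverie test), and was 1.63-fold lower in Huh7-C than in Huh7, which was under the fold threshold (log2 fold-change -0.71; FDR 3.1e-10). AKR1C3 had 1 count in Hep3B against 11 (2.37 CPM) in Hep3B-C, and 688 (152 CPM) in Huh7 against 430 (99.2 CPM) in Huh7-C. It was not called in either pair: the ratio was 6.86 in the Hep3B pair (0.998 to 295; FDR 0.076), and AKR1C3 was 1.53-fold lower in Huh7-C (log2 fold-change -0.61; FDR 3.6e-11). In Hep3B-C the level of all 3 genes stayed below that of Huh7, and AKR1C3 was 41.9-fold higher in Huh7-C than in Hep3B-C (23.2 to 84.5).

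The balance between AKR1C1 and AKR1C2 differed between the libraries. AKR1C1 took 89.1% of the counts of both genes in Hep3B-C (95% Wilson interval 85.3 to 92.0, 338 counts), 52.4% in Huh7 (49.3 to 55.5, 1017 counts) and 13.7% in Huh7-C (10.4 to 17.9, 328 counts). The intervals of the 3 libraries did not overlap, and they cover counting error only. Because a read shared by both genes may have been counted for either, the 3 AKR1C genes were also summed. The sum went from 0.345 CPM in Hep3B to 75.2 CPM in Hep3B-C and from 376 CPM in Huh7 to 175 CPM in Huh7-C, which gave a ratio of 218 in the Hep3B pair, resting on 1 count in Hep3B (38.8 to 8626; FDR 1.5e-70, Audic-Claverie test), and a level 2.15-fold lower in Huh7-C (1.97 to 2.34; FDR 5.3e-72). The opposite directions in the pairs were thus also present in the sum, which does not depend on how reads were split among the 3 genes. The sum could still depend on whether shared reads were dropped or counted more than once, which is not given.

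The promoters of AKR1C1, chr10:4963165-4963464 on the plus strand, and AKR1C2, chr10:5003808-5004107 on the minus strand, are shown because these neighbours share a run of 245 identical bases there although their counts moved by different amounts. Capitals mark TGAGCTGGC, found on the opposite strand of both, at -41 in AKR1C1 and -45 in AKR1C2.
AKR1C1 promoter: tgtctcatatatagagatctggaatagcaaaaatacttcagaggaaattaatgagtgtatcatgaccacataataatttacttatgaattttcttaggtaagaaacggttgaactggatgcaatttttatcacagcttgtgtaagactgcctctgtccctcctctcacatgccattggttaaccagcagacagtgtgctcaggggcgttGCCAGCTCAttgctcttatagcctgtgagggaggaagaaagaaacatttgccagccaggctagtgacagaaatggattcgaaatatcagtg
AKR1C2 promoter: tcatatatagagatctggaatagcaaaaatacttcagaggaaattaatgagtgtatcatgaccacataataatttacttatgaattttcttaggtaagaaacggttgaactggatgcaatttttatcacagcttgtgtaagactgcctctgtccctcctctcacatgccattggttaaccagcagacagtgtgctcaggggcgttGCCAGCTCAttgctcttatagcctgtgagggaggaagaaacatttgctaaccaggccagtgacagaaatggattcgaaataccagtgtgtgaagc

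**Figure D2:**
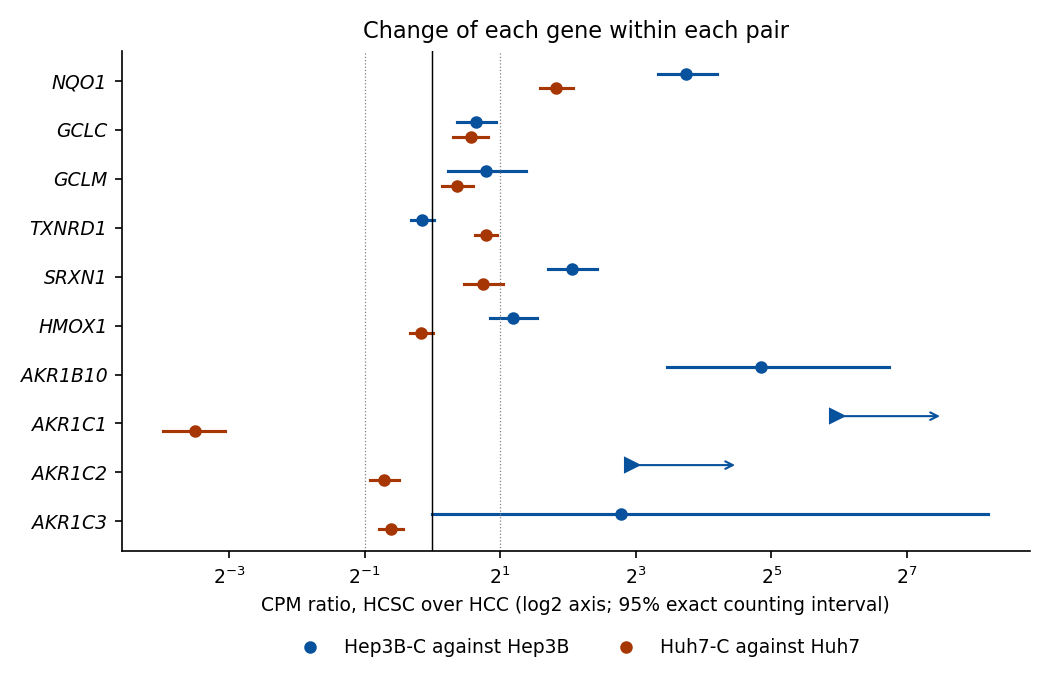
Ratio of the HCSC library to its parental library for each gene, on a log axis, with 95% exact counting intervals for both pairs. AKR1B10 is not drawn for the Huh7 pair, where it had 1 count in each library. Arrows mark genes with 0 counts in Hep3B, for which the ratio is a lower bound. NQO1 lies at 13.4 and 3.55, whereas AKR1C1 lies at 62.6 or more in the Hep3B pair and below 1 in the Huh7 pair.

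In the Hep3B pair 6 of the 10 genes were called up (NQO1, SRXN1, HMOX1, AKR1B10, AKR1C1 and AKR1C2) and 0 down, against a background of 13.2% of 15480 genes called up and 30.4% called down. In the Huh7 pair 1 was called up (NQO1) and 1 down (AKR1C1), against 4.19% and 4.15% of 14807 genes. With the AKR1C genes summed into 1, 5 of the resulting 8 features were called up and 0 down in the Hep3B pair. In the Huh7 pair 1 of these features was called up and 1 down. The median log2 fold-change of the 10 genes was 2.15 in the Hep3B pair, beside -0.55 for all genes with at least 20 counts, and 0.22 in the Huh7 pair, beside 0.06. Over the 9 members of each pair with at least 20 counts the medians were 2.05 and 0.37. NQO1 was the single member called up in both pairs, as were 79 of 13917 genes (0.568%). The share of members called in the Huh7 pair, 1 of 10 in each direction, was too small a count to be read against its background. The members were chosen with earlier results of these data known, so the shares of both pairs describe the list and do not test it.

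The level of the Hep3B comparison depended on the scaling. TMM library sizes, which assume that most genes are unchanged, shifted every log2 fold-change of the Hep3B pair by 0.60, to a median of 0.04 over all genes, and moved the calls from 2043 up and 4708 down to 3348 up and 2799 down (21.6% and 18.1%). All 10 members lay above the median of all genes under the total-count scaling, and with TMM sizes 8 members were called up, GCLC and GCLM being added. Across the genes of the Hep3B pair the log2 fold-change also rose with GC content (Spearman rho 0.63, across genes, which are not independent) and fell with gene length (-0.43), whereas in the Huh7 pair these were -0.06 and 0.31. The members' GC content ranged from 39.8% to 58.1% with a median of 43.9%, below the median of 49.0% over all genes of the pair. After removal of both trends 7 members were called up and 0 down, against 3.83% and 25.8% of all genes, with GCLC and GCLM gained and HMOX1 lost. In the Huh7 pair the calls of NQO1 and AKR1C1 were kept with TMM sizes (background 3.73% up and 4.46% down) and with both trends removed (2.86% and 4.15%). Under a biological coefficient of variation of 0.4, assumed because none could be measured, 4 members remained called up in the Hep3B pair, against 0.846% of all genes, and in the Huh7 pair neither call held, against 0.0878% up and 0.081% down.

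**Figure D3:**
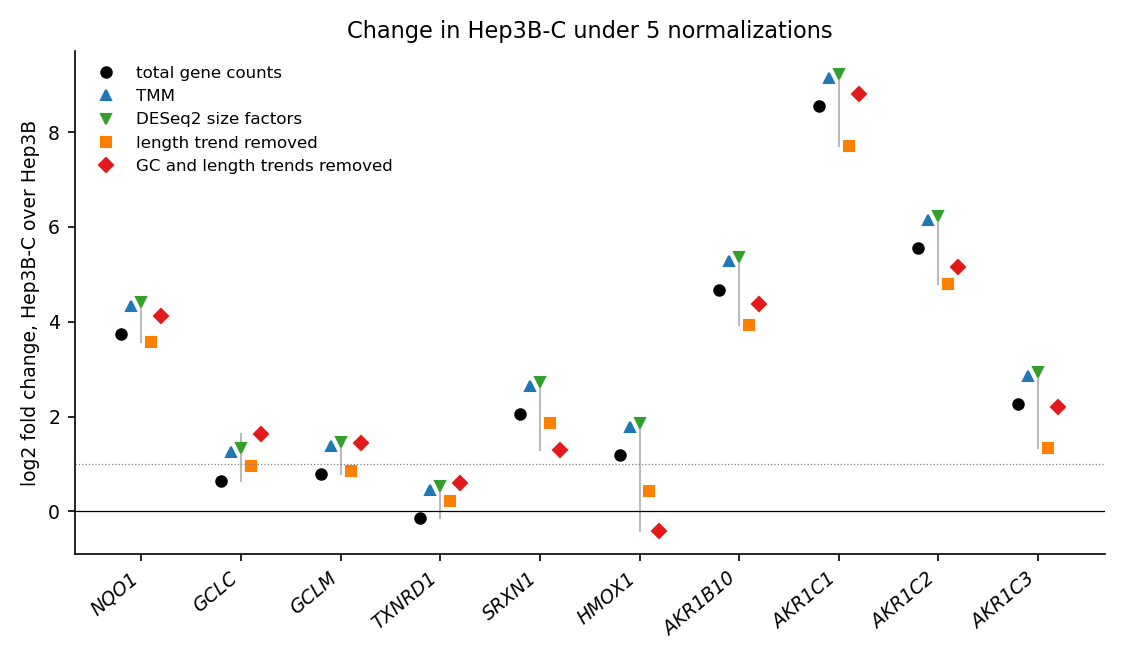
Log2 fold-change of each gene in the Hep3B pair under 5 normalizations, 1 symbol each, with a grey line over their range and a dotted line at the threshold of 1. NQO1, SRXN1, AKR1B10, AKR1C1, AKR1C2 and AKR1C3 stay above 1 under all 5, TXNRD1 lies between -0.15 and 0.61, and HMOX1 falls to -0.42 when the trends on GC content and length are removed. AKR1C3 rests on 1 count in Hep3B and 11 in Hep3B-C and was called under none of these normalizations. The values of AKR1C1 and AKR1C2 rest on 0.5 added to 0 counts in Hep3B.

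**Figure D4:**
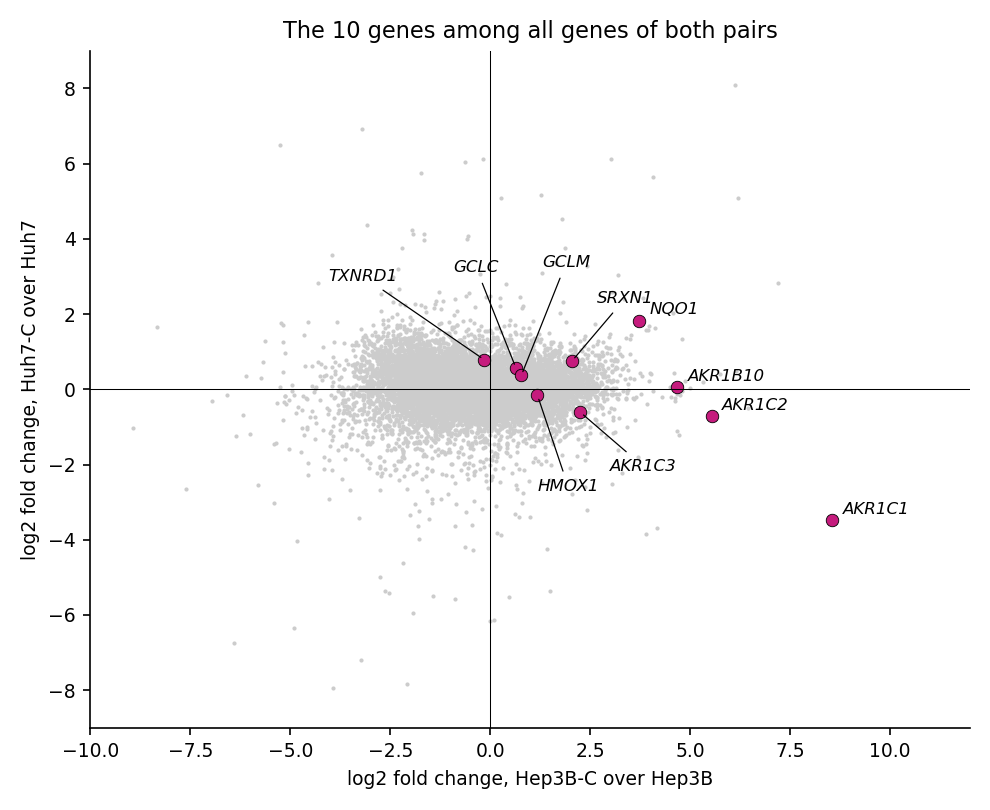
Log2 fold-change of the Hep3B pair against that of the Huh7 pair. Grey points are the 10294 genes with at least 20 counts in both pairs and coloured points are the 10 genes, with values for AKR1C1 and AKR1C2 on the horizontal axis that rest on 0.5 added to 0 counts, and the vertical value of AKR1B10 resting on 1 count in each library. NQO1 lies at 3.73 and 1.83, and AKR1C1 lies far right and below 0.

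The 4 libraries were also fitted together, with the parental line as a block, to ask which genes changed alike in both HCSC lines. In this edgeR quasi-likelihood fit, with 1 residual degree of freedom, 4 of 11691 genes were called up (0.0342%) and 5 down (0.0428%) at an FDR of 0.05, and 372 had an unadjusted p below 0.05. None of the 10 genes was called, and AKR1B10 did not pass the filter on low counts. At an unadjusted threshold of 0.05, NQO1 alone of the members passed, at rank 55 of the genes tested. Its log2 fold-change was 2.94, with an adjusted p of 0.50 in edgeR. DESeq2 called 0 members too, with NQO1 at an adjusted p of 0.076. With the trends on GC content and length removed, NQO1 was called (log2 fold-change 3.13, adjusted p = 3.0e-05, edgeR), as were 0.368% of all genes in that direction.

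Genes whose pattern over the 4 libraries was most like that of NQO1 were found by distance over centred log2(CPM + 1) values, among 7721 candidates. The nearest were HES6 (distance 0.354), MVD (0.355), FAM203A (0.593), SFN (0.593) and LY6E (0.642). MVD, an enzyme of the mevalonate pathway, stood at 19.3 and 302 CPM in the Hep3B pair (HCC first) and at 48.0 and 143 CPM in the Huh7 pair. This likeness rests on 4 libraries. HES6 (1.38 CPM) and SFN (1.73 CPM) stood near the lower limit of 1.04 CPM in Hep3B.

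The transcript of NRF2 itself was not called in either pair. NFE2L2 stood at 183 CPM in Hep3B and 99.5 CPM in Hep3B-C, and at 169 CPM in Huh7 and 257 CPM in Huh7-C, lower in the HCSC library of 1 pair and higher in that of the other. Neither difference reached the fold threshold (log2 fold-change -0.88, FDR 8.4e-21, and 0.61, FDR 3.0e-18, Audic-Claverie test). The size of the Hep3B value depended on the scaling. The median of all genes in that pair was -0.55, and TMM library sizes raised every log2 fold-change of the pair by 0.60. KEAP1, the inhibitor, was up-regulated in Hep3B-C, from 50.8 to 115 CPM (log2 fold-change 1.18; FDR 2.4e-20), a value that became -0.20 after removal of the GC and length trends, and stood at 74.3 and 76.1 CPM in the Huh7 pair (FDR 0.91). BACH1, the repressor of HMOX1, fell in Hep3B-C from 43.2 to 13.6 CPM (log2 fold-change -1.66; FDR 3.1e-14), which was -0.25 and not called after the same removal, and stood at 13.0 and 15.9 CPM in the Huh7 pair (FDR 0.48). Of the 14 genes of NRF2 control, 3 were called up and 4 down in the Hep3B pair (median log2 fold-change -0.30 beside -0.55 for all genes) and 0 in the Huh7 pair (0.12 beside 0.06). The Hep3B shares were near the background of 13.2% up and 30.4% down, and the calls were 4 up and 1 down with TMM library sizes and 1 up and 4 down after removal of both trends.

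The remaining genes of the pathway were counted by function, to be read beside all genes of the Hep3B pair (13.2% up, 30.4% down, median -0.55) and of the Huh7 pair (4.19% up, 4.15% down, median 0.06). These lists too were chosen with earlier results of these data known, so their counts are a description and not a test. In the Hep3B pair, 10 of 24 listed genes of glutathione synthesis and use were called up and 0 down (median log2 fold-change 0.79), as were 8 up and 1 down of 12 thioredoxin and peroxiredoxin genes (1.19), 4 up and 0 down of 6 genes of NADPH supply (2.00), 3 up and 0 down of 8 haem and iron genes (0.29) and 6 up and 1 down of 16 further enzymes and transporters (0.64). After removal of the GC and length trends (3.83% of all genes up, 25.8% down, median -0.55) the calls up were 3, 2, 4, 2 and 7 in the same order, the calls down 2, 1, 0, 0 and 2, and the medians 0.28, 0.09, 1.56, -0.41 and 1.07. In the Huh7 pair the same lists held 4, 0, 1, 0 and 1 genes called up, and 1, 0, 0, 0 and 0 called down, with medians of -0.16, -0.11, 0.38, 0.21 and 0.40. Of the other aldo-keto reductases, 4 of 10 listed genes were called up and 2 down in the Hep3B pair (1 up and 2 down with the GC and length trends removed), and 0 up and 1 down in the Huh7 pair. Superoxide dismutases and catalase, which remove superoxide and hydrogen peroxide, had 1 gene called up and 1 down of 4 in the Hep3B pair and 0 in the Huh7 pair.

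**Figure D5:**
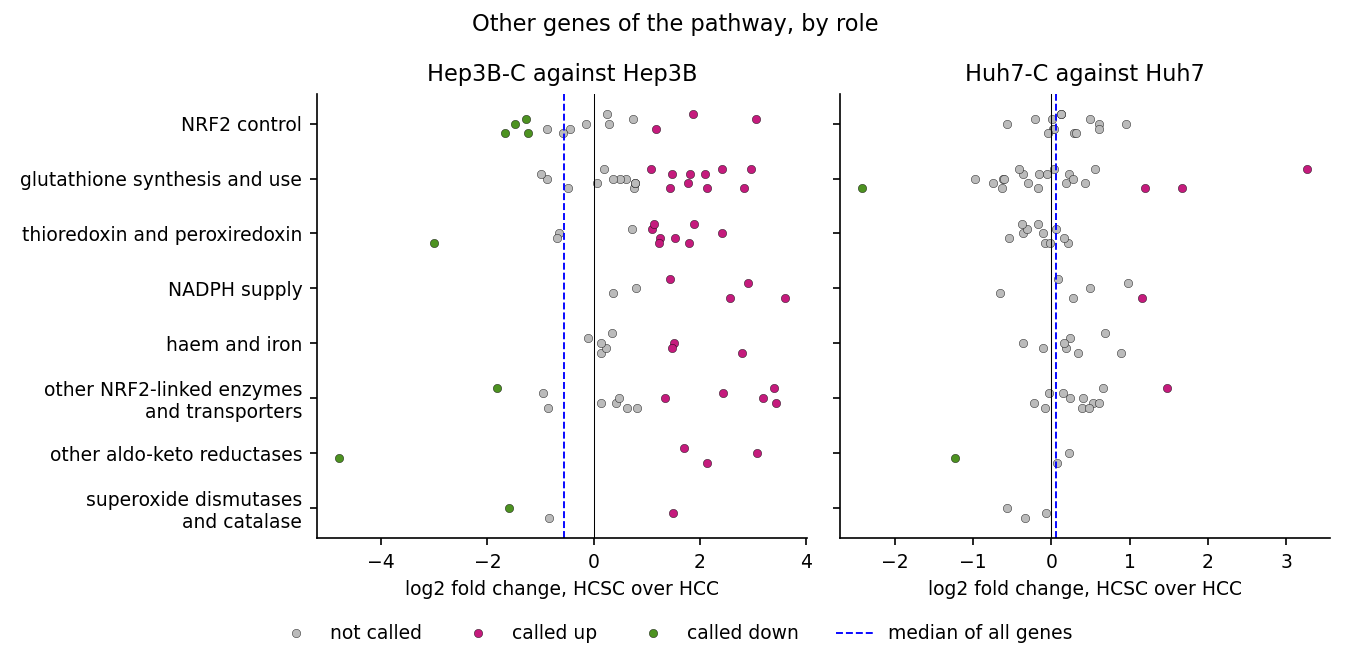
Log2 fold-change of the other genes of the pathway with at least 20 counts in a pair, 1 point per gene, by list and pair, with colour for the call and a dashed line at the median of all genes (-0.55 and 0.06). The points called up lie in all 8 lists in the Hep3B pair and in 3 lists in the Huh7 pair.

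GPX2 and TKT were the genes of these lists called up in both pairs. GPX2, a glutathione peroxidase of epithelia, stood at 23.8 and 129 CPM in the Hep3B pair (HCC first) and at 3.75 and 37.1 CPM in the Huh7 pair (log2 fold-change 2.42, FDR 1.5e-58, and 3.27, FDR 1.5e-30, Audic-Claverie test). In the Hep3B pair its call did not hold after removal of the GC and length trends (0.96). TKT, the transketolase of the pentose phosphate pathway, stood at 108, 637, 359 and 800.2 CPM in the same order (log2 fold-change 2.56, FDR 5.7e-305, and 1.16, FDR 2.1e-166). Within each pair, both genes were thus higher in the HCSC library.

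Among the genes of these lists with the largest changes in the Hep3B pair, PTGR1, a prostaglandin and leukotriene reductase, rose from 2.76 to 31.7 CPM (11.5-fold, 5.67 to 27.1). OSGIN1 rose from 4.49 to 48.7 CPM (10.8-fold, 6.22 to 20.7) and EPHX1, the microsomal epoxide hydrolase, from 41.1 to 375 CPM (9.13-fold, 7.58 to 11.1). The ratios in the Huh7 pair were 1.58 for OSGIN1 and 1.17 for EPHX1, neither of them called, and PTGR1 was not listed in that pair. Of the other aldo-keto reductases, AKR7A2, an aldehyde reductase, rose from 12.4 to 106 CPM (8.54-fold, 6.09 to 12.3) and AKR1D1, the steroid reductase of bile acid synthesis, fell from 20.7 to 0.646 CPM (32.1-fold lower, 10.5 to 160). The GC contents of OSGIN1 (63.4%), EPHX1 (56.4%) and AKR7A2 (61.1%) were above the median of 49.0% over all genes of the Hep3B pair. Fold-changes in that pair rose with GC content, and the ratios given here are those before removal of the trends.

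The largest changes in the Huh7 pair, after GPX2, were in other genes. GPX3, the secreted glutathione peroxidase, fell from 187 to 34.8 CPM in Huh7-C (log2 fold-change -2.42; FDR 7.2e-110, Audic-Claverie test) and rose from 52.5 to 230.1 CPM in Hep3B-C (2.13; FDR 3.2e-89). The GC content of GPX3 (57.0%) was above the median of 49.0% in the Hep3B pair, where fold-changes rose with GC content. Both GPX3 values are those before removal of the trends. GSTP1, a glutathione transferase, rose from 762 to 2421 CPM in Huh7-C (3.18-fold, 3.06 to 3.30) but had 0 and 3 counts in the Hep3B pair. ALDH1A1, the retinal dehydrogenase, rose from 325 to 901 CPM in Huh7-C (2.77-fold, 2.61 to 2.95), and its ratio in the Hep3B pair, 1.56, was not called. SLC7A11, the cystine transporter that feeds glutathione synthesis, rose from 9.92 to 22.8 CPM (2.30-fold, 1.60 to 3.35), a call that did not hold after removal of the length trend (log2 fold-change 0.71), and AKR1B1, the aldose reductase, fell from 62.8 to 26.8 CPM (2.35-fold lower, 1.88 to 2.94).

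The HCSC lines also differed from each other. NQO1 was 1.49-fold lower in Huh7-C than in Hep3B-C (1.35 to 1.64), while Huh7 was 2.54-fold above Hep3B (1.84 to 3.56). SRXN1 was 1.79-fold higher in Hep3B-C than in Huh7-C and AKR1C1 6.24-fold higher (4.55 to 8.74). In the other direction, GCLM was 3.80-fold higher (3.04 to 4.80), HMOX1 1.63-fold higher and AKR1C2 8.19-fold higher (5.80 to 11.9) in Huh7-C. These ratios used total gene counts, with no trend on GC content or length removed. The AKR1C1 and AKR1C2 ratios may depend on how reads were split between these genes. Summed, the AKR1C genes stood at 75.2 CPM in Hep3B-C and 175 CPM in Huh7-C. These lines differ in parental line as well as library, which cannot be told apart here.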

How the data were processed

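Messenger RNA of 4 cell lines was sequenced on an Illumina Genome Analyzer II, 1 library each. The authors filtered adapters and low-quality reads, mapped the reads with NextGENe to NCBI Build 36.1 and deposited whole-number read counts per gene with a gene length. CPM, RPKM and fold-changes were computed here from these deposited counts and the total gene count. Genes were joined by Entrez ID. Genes with no count in a pair were not in its files.

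Within each parental line, HCSC and HCC were compared by the Audic-Claverie test (two-sided by doubling the tail, Benjamini-Hochberg over all genes of the pair), after the Poisson-based test and thresholds of the study, and a call required an FDR no higher than 0.01 and a log2 fold-change of 1 or more in size. The calls differ in number from those of the study, and the reason was not tested. In the Huh7 pair the study reported more genes in each direction than the 620 up and 614 down called here. In the Hep3B pair it reported fewer than the 2043 up and 4708 down called here. Log2 fold-changes had 0.5 added to each count, and SEs are those of Poisson counts. Ratios carry 95% exact binomial intervals and shares Wilson intervals. A gene at 0 counts was set to a floor of 3 counts for a lower bound. The joint fit used edgeR 4.0.16 (glmQLFit, TMM, filterByExpr, parental line as a block, in R 4.3.3), with DESeq2 1.42.0 as an alternative. The labels give the parental line of each HCSC culture, and, after group means were subtracted, Hep3B and Hep3B-C correlated at 0.566 across 12614 genes, so the lines were treated as pairs. Other calculations used Python 3.11.15 with scipy 1.17.1. The scripts were tested on simulated data.

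All 10 members were named, with NFE2L2, KEAP1 and BACH1. From 8 pathway lists, genes with at least 50 counts in a library of a pair were named if called alike in both pairs or among the 6 largest called changes of a pair. Of the genes so chosen, 1 is not reported here. Positions and GC content are from GENCODE 29 (GRCh38) and promoters and coding sequences from RefSeq and GENCODE, used as annotation only since the reads were mapped to another build. The members and lists were chosen with earlier results of these data known.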

Additional observations from a re-analysis of the deposited data

Results flagged for a closer look

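Of the 10 members and the other named genes, 4 had opposite signs in the pairs with an FDR of at most 0.01 in each, and with 1 library per line this difference was not tested over samples. AKR1C1 had log2 fold-changes of 8.56 in the Hep3B pair, fitted with 0.5 added to 0 counts, and -3.49 in the Huh7 pair. AKR1C2 had 5.55, fitted in the same way, and -0.71, the latter under the fold threshold. GPX3, with a GC content of 57.0%, had 2.13 and -2.42, both before removal of the GC and length trends. NFE2L2 had -0.88 and 0.61, both under the fold threshold, and the first stands beside a median of -0.55 over all genes of the Hep3B pair. AKR1C1 and AKR1C2 share most of their sequence and are not independent of each other.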

How the results depend on the processing

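Of 120 values of single members under alternative settings, 101 kept their direction and their side of the threshold, 6 gained a call, 5 lost one and 8 changed sign. The sign changes were those of HMOX1, to -0.42 in the Hep3B pair once GC and length trends were removed and to 0.019 and 0.012 in the Huh7 pair with the length trend and with both trends removed, and of TXNRD1 in the Hep3B pair, to 0.45 with TMM, 0.53 with DESeq2, 0.22 with the length trend removed, 0.61 with both removed and 0.45 with the assumed variation below, of which HMOX1 in the Hep3B pair alone had been called. The median log2 fold-change of the members in the Hep3B pair, 2.15, was 2.75 with TMM library sizes, 2.83 with DESeq2 size factors, 1.60 with the length trend removed and 1.56 with 5 added to each count. In the Huh7 pair, leaving out AKR1B10, with both libraries under the floor, moved it from 0.22 to 0.37, an alternative chosen after the data were seen. With an assumed biological coefficient of variation of 0.4, which stands in for the spread between cultures that was not measured, 4 members were still called up in the Hep3B pair, SRXN1 (FDR 0.059) and HMOX1 (FDR 0.22) being lost, and in the Huh7 pair 0 were called up and 0 down. In the joint fit the members called were 0, or 1 (NQO1) with the GC and length trends removed, where all genes gave 43 up and 120 down in place of 4 and 5. All genes called down were 3 with total counts as library sizes and 8 with no filter. Without the replicate block of parental line, 0 genes were called up and 0 down, 124 having an unadjusted p below 0.05 in edgeR, and the block changed no call of a member. Leaving out each library in turn, in a fit of the group alone because the block leaves no residual degrees of freedom, gave 0 to 11 genes up and 0 to 18 down, with the lone sample of a group assumed to vary like the other group, and NQO1 kept a log2 fold-change between 2.23 and 3.83. The cause of these differences was not tested. Depth limits the AKR1C genes in Hep3B, at 0 or 1 counts, and AKR1B10 in the Huh7 pair, at 1 count in each library.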

Other observations

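Selective autophagy and iron storage were not part of the named genes, and 2 genes of the lists were chosen here after their values were seen. SQSTM1, an autophagy receptor that binds KEAP1, stood at 301 and 2496 CPM in the Hep3B pair (HCC first) and at 582 and 821 CPM in the Huh7 pair, with ratios of 8.29 (7.74 to 8.89) and 1.41 (1.34 to 1.48), the first of which was called. FTL, the ferritin light chain, stood at 2207 and 15239 CPM in the Hep3B pair and at 3010.5 and 5578 CPM in the Huh7 pair, with ratios of 6.91 (6.73 to 7.09), which was called, and 1.85 (1.81 to 1.89), which was not. Both SQSTM1 (58.0% GC) and FTL (56.3%) were above the median GC content of 49.0% in the Hep3B pair, where fold-changes rose with GC content. The ratios are those before removal of the trends, and their intervals cover counting error only.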
